A study of Mus musculus with 6 samples.

Results

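Mir342 and the genes of the Mir15/16 group are miRNA genes that lie in introns of longer genes, and they were examined here together with those host genes. There were 8 members among the 54547 genes of the count files, namely the 5 miRNA genes Mir342, Mir15b, Mir16-2, Mir15a and Mir16-1 and the 3 host genes Evl, Smc4 and Dleu2. Members were taken by name, the miRNA genes from the deposited list of 1241 miRNA features and the hosts through GENCODE vM21. Small RNA was sequenced from Treg cells sorted from the thymus of 7-week-old mice on a background labelled C5BL6/N, with 3 WT libraries and 3 libraries from mice that lack both copies of miR-181a-1 and miR-181b-1 (labelled miR-181a1/b1 -/-; written miR-181a/b-1-/- or knockout here). Each library came from cells of several pooled thymi, so that 1 library is 1 pool and not 1 animal. The comparison asked whether miRNAs other than the deleted ones differ between the genotypes, and for intronic miRNAs whether the miRNA count moved with the count of its host.

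An intronic miRNA is cut as a hairpin out of the primary transcript of its host by the Drosha and Dgcr8 complex, and the hairpin is then cut by Dicer into a mature strand of about the length of a small RNA read. The mature strand guides an Argonaute protein to mRNAs that pair with its seed, bases 2 to 8 counted from the 5′ end. The miR-15/16 group is known for holding down Bcl2 and several cyclins, and loss of the DLEU2 locus with its miRNAs is a frequent lesion of chronic lymphocytic leukaemia. Evl belongs to the Ena/VASP proteins that extend actin filaments, Smc4 is a core subunit of condensin, the complex that compacts chromosomes, and Dleu2 is a long noncoding RNA.

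The mature strands below are shown because their letters decide which counts can be compared. They come from RefSeq (GRCm38.p6), which held mature strands for all 5 miRNA members, and capitals mark the seed.

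miR-342-3p: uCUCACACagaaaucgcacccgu

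miR-342-5p: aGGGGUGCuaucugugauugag

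miR-15b-5p: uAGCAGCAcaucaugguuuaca

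miR-15a-5p: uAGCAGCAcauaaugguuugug

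miR-16-5p: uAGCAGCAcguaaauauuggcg

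miR-16-2-3p: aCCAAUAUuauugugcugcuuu

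miR-16-1-3p: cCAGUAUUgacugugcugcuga

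The strands miR-15b-5p, miR-15a-5p and miR-16-5p carry the same seed, which 10 mature strands of the RefSeq table have. Neither strand of miR-342 shares its seed with another mature strand in that table. The 22 bases of miR-16-5p occur unchanged in 2 hairpins, Mir16-1 and Mir16-2, which share a stretch of 23 bases. A read that holds only miR-16-5p therefore has no unique alignment, and HTSeq in its default setting leaves such reads out. The counts on Mir16-2 and Mir16-1 are uncertain for this reason and may stem from reads that reach other bases of the hairpin, such as the 3p strands, which differ. Mir342 shared at most 12 bases with any other hairpin of the table, and Mir15b at most 10 bases with those it was compared with, which did not include the Mir15a hairpin.

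Mir342 lies at chr12:108658620-108658718 on the forward strand of GRCm38, in intron 3 of the longest Evl transcript that holds it in an intron (Evl-201, 14 exons), an intron of 20189 bases. Mir15b at chr3:69009772-69009835 and Mir16-2 at chr3:69009902-69009996 lie 66 bases apart on the forward strand in intron 5 of Smc4-201 (24 exons). Mir15a at chr14:61632027-61632110 and Mir16-1 at chr14:61631880-61631972 lie 54 bases apart on the reverse strand in intron 4 of Dleu2-208 (5 exons). No exon of Evl or Smc4 overlapped its miRNA genes in the annotation. An exon of 1 Dleu2 transcript overlapped Mir16-1 by 13 bases. Of the 2940 exonic bases of Evl, 278 are also exonic in Degs2 on the other strand, which had 1 count in all 6 libraries together.

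**Figure D1:**
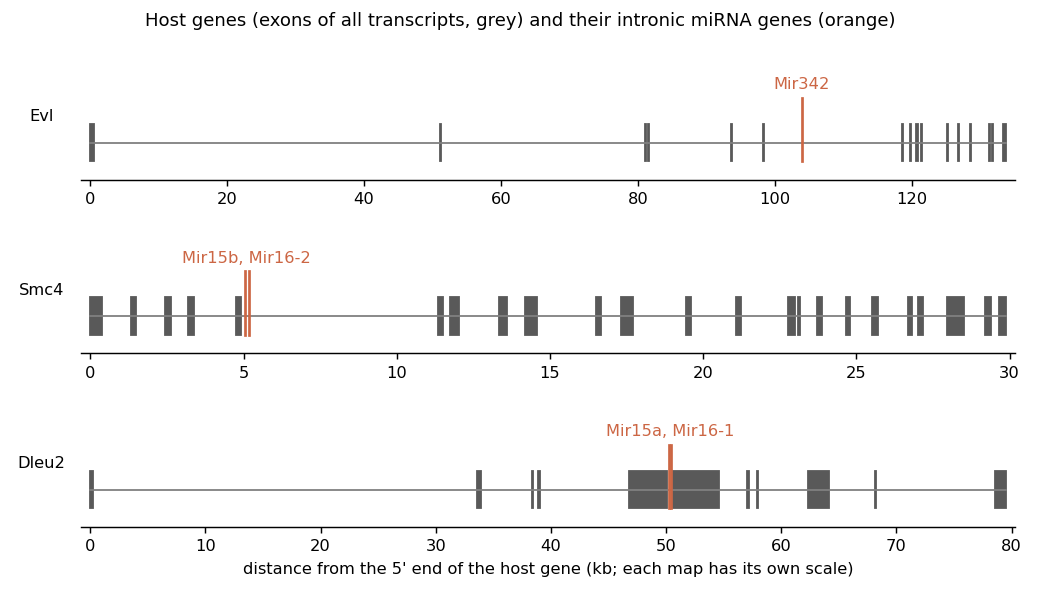
Maps of the host genes Evl, Smc4 and Dleu2, with distance from the 5′ end in kb on the x axis, exons of all annotated transcripts in grey and miRNA genes in orange. Mir342 sits in a long intron in the 3′ part of Evl, Mir15b and Mir16-2 sit side by side in the 5′ part of Smc4, and Mir15a and Mir16-1 sit in a gap between exons of different Dleu2 transcripts that is too narrow to see at this scale.

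The libraries held 168293 to 307840 counts on genes and 1359 to 3422 counts on miRNA features, and miRNA features took 1.11% to 1.52% of the gene counts in WT and 0.697% to 1.11% in knockout libraries. The deleted genes could not serve as a check of the labels, since Mir181a-1 had 1 count in all (WT replicate 2) and Mir181b-1 had 0. Of 10 Treg- and T-cell genes, 9 had enough counts for a test, among them Foxp3 with 17 to 39 counts in each library, and 0 of these 9 differed at an adjusted p under 0.05. Hemoglobin and other erythroid genes were at 0 in each library, and none of the 6 B cell, 6 myeloid and 7 double-positive thymocyte markers had enough counts for a test (3, 4 and 3 of them at 0). In CPM, counts scaled to a total of 1000000 gene counts in each library, the B cell markers summed to 32.8 to 58.6 in WT and 22.7 to 53.5 in knockout libraries, those of double-positive thymocytes to 4.10 to 17.8 and 13.0 to 25.6, and the myeloid ones to 0 in WT and 0 to 20.5 in the knockout. Their part in the results was not tested. Library totals and levels cannot tell fewer cells of a type from less RNA per cell.

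Mir342 was the miRNA gene with the second highest count over all libraries, and its mean level in knockout libraries was 0.499 times that in WT. It had 268, 218 and 132 counts in WT replicates 1, 2 and 3 and 78, 58 and 175 in knockout replicates 1, 2 and 3. On a scale common to all genes (CPM of the counts on the 1391 genes tested, with edgeR's TMM normalization, used from here on), this was 1334, 1108 and 595 in WT and 470, 327 and 718 in knockout libraries. The groups overlapped, because WT replicate 3 was below knockout replicate 3. The mean in WT was 1012 ± 379 (SD, n = 3), against 505 ± 198 (SD, n = 3) in knockout libraries, a log2 fold change of -0.99 with a standard error of 0.31.

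Evl, the host of Mir342, gave few counts, and its mean was higher in knockout libraries. It had 9, 2 and 9 counts in WT and 7, 5 and 17 in knockout libraries, which was below the minimum for the test (10 counts in at least 3 libraries). In CPM this was 44.8, 10.2 and 40.6 in WT and 42.2, 28.2 and 69.7 in knockout libraries, and the groups overlapped. The means were 31.8 ± 18.9 (SD, n = 3) and 46.7 ± 21.1 (SD, n = 3). In the fit without a count filter Evl had a log2 fold change of 0.57 with a standard error of 0.48 (edgeR quasi-likelihood test, adjusted p = 0.734).

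Mir15b had the largest log2 fold change in size of the 4 members tested, and it was the member whose groups did not overlap. It had 52, 33 and 28 counts in WT and 15, 10 and 24 in knockout libraries. In CPM the values were 259, 168 and 126 in WT and 90.5, 56.4 and 98.5 in knockout libraries, so that each knockout library was below each WT library (exact permutation test, two-sided, p = 0.1, which is the lowest value possible with 3 against 3). The means were 184 ± 67.9 (SD, n = 3) and 81.8 ± 22.3 (SD, n = 3), with a log2 fold change of -1.14 and a standard error of 0.34. Of the 1391 genes tested, 4.82% had groups that did not overlap with knockout below WT.

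Mir16-2, the neighbour of Mir15b in the same intron, had a smaller difference. Its counts were 13, 12 and 27 in WT and 7, 12 and 22 in knockout libraries, or 64.7, 61.0 and 122 CPM against 42.2, 67.6 and 90.2 CPM. The groups overlapped. Its log2 fold change of -0.27 was smaller than its standard error of 0.36, and it turned to 0.13 without WT replicate 3.

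Smc4, which hosts both hairpins, was among the most counted protein-coding genes. It had 174, 158 and 195 counts in WT and 134, 115 and 184 in knockout libraries. In CPM these were 866, 803 and 879 in WT and 808, 648 and 755 in knockout libraries, with means of 849 ± 40.7 (SD, n = 3) and 737 ± 81.4 (SD, n = 3). The groups overlapped only through knockout replicate 1, which was above WT replicate 2, and the log2 fold change of -0.20 was smaller than its standard error of 0.24.

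The level of Smc4 was far above that of its condensin partners. Per kb of exon and summed over the 6 libraries, Smc4 had 184 counts, whereas Smc2, its partner in the SMC dimer, had 5.11 and the other 6 condensin subunits had between 0.142 (Ncapg) and 5.24 (Ncaph2). The related cohesin subunits Smc1a and Smc3 had 18.4 and 18.0 counts per kb. Smc4 was number 61 of 12560 protein-coding genes with a count when these were ordered by counts per kb, and Evl, with 16.7 counts per kb, was number 800. The count files do not say where in Smc4 the fragments lie.

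Mir15a, Mir16-1 and their host Dleu2 were near the limit of these libraries. Mir15a had 2, 0 and 2 counts in WT and 2, 1 and 3 in knockout libraries. Mir16-1 had 2 counts in all, both in knockout replicate 3, while the libraries at 0 could hold shares of up to 0.0891% to 0.111% (WT) and of up to 0.165% and 0.221% (knockout replicates 1 and 2) of their miRNA counts. Dleu2 had 3, 1 and 7 counts in WT and 1, 1 and 5 in knockout libraries. In both genotypes Dleu2 was highest in replicate 3, and a difference between genotypes was not detectable for these 3 genes at this depth.

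**Figure D2:**
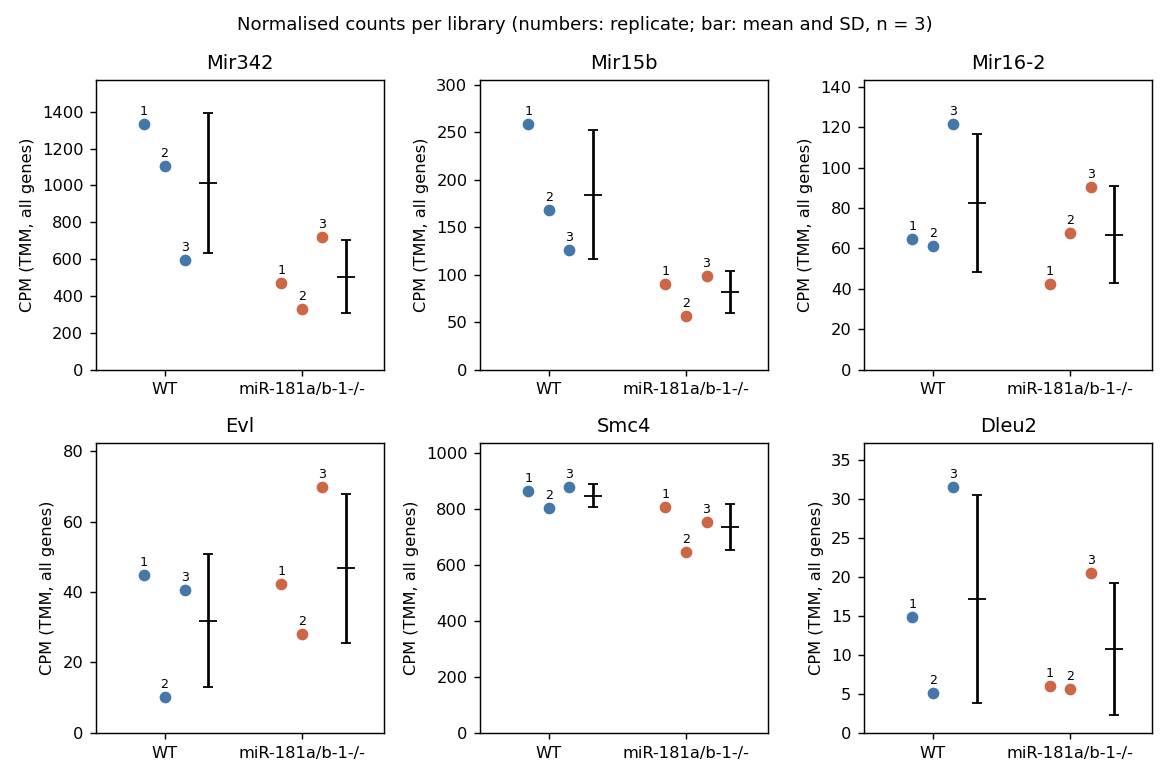
TMM-normalised CPM over all genes (y axis, from 0) for Mir342, Mir15b, Mir16-2, Evl, Smc4 and Dleu2 in each WT (blue) and miR-181a/b-1-/- (orange) library, with the replicate number above each point and the mean and SD (n = 3) beside it. Mir15b separates the genotypes, Mir342 overlaps through replicate 3 of each, and Mir16-2, Evl, Smc4 and Dleu2 overlap.

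None of the members passed an adjusted p of 0.05 when all genes were tested together. In edgeR's quasi-likelihood test over 1391 genes with Benjamini-Hochberg adjustment, 0 of 4 tested members and 0.0% of all genes tested passed. DESeq2 on the same genes also made 0 calls, with 11 lower and 13 higher genes at an unadjusted p under 0.05. At an unadjusted p under 0.05, edgeR had 37 lower genes, 2.66% of all genes tested, and 35 higher genes, and Mir342 (edgeR adjusted p = 0.418) and Mir15b (edgeR adjusted p = 0.371) were 2 of the lower ones. The adjusted p was 0.980 for both Mir16-2 and Smc4 in this edgeR test. Without knockout replicate 3, Mir342 passed with a log2 fold change of -1.34 (edgeR, adjusted p = 0.0214), as the 1 lower gene (0.0719% of the genes tested) beside 3 higher genes. Of all genes the median log2 fold change was 0.00, and of the 23 miRNA features in the same fit, members included, it was -0.27. At an unadjusted p under 0.05 in this edgeR fit, 4 of these 23 features were lower, Mir342 and Mir15b among them, and 1 was higher.

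With the 23 miRNA features normalised and tested alone, the differences were smaller. The log2 fold change was -0.59 for Mir342 (standard error 0.31, edgeR adjusted p = 0.691), -0.74 for Mir15b (standard error 0.44, edgeR adjusted p = 0.727) and 0.07 for Mir16-2 (standard error 0.49, edgeR adjusted p = 0.933). In this test 0 of 3 member miRNAs passed an adjusted p of 0.05, and none of the 3 had an unadjusted p under 0.05. Of the 23 features tested, 1 (4.35%) passed, which is no member and was higher in the knockout. For Mir16-2 this value turned to -0.19 and -0.39 without WT replicate 1 and 2, to -0.05 and -0.06 without knockout replicate 2 and 3, and to -0.26 without a count filter, so no direction is given for it. If p-values from the fit of all genes were instead adjusted over the 23 miRNA features, a setting chosen after seeing the data, Mir342 and Mir15b passed (edgeR adjusted p = 0.0300 and 0.0268). In that setting they were the 2 lower features of 23 (8.7%) to pass, and 1 feature that is no member was higher.

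**Figure D3:**
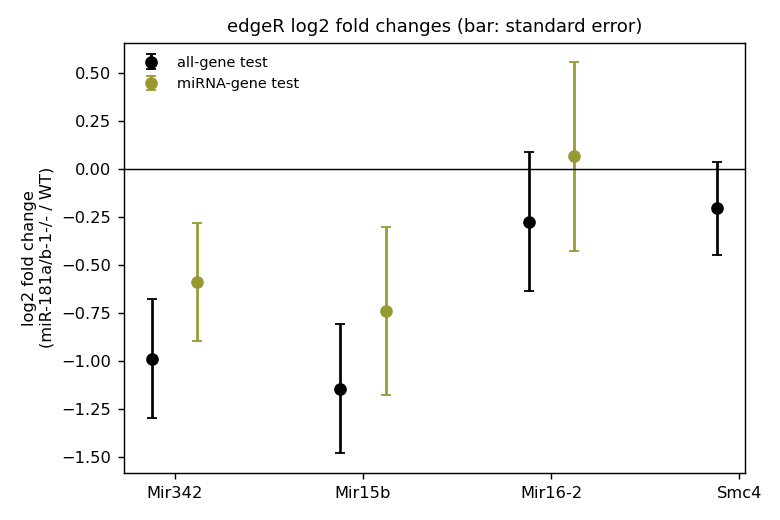
edgeR log2 fold changes of miR-181a/b-1-/- over WT (y axis) with standard errors for the members with enough counts, in the test of all 1391 genes (black) and of the 23 miRNA features alone (olive). Mir342 and Mir15b are below 0 on both scales, and Mir16-2 is at -0.27 and 0.07, each within its standard error of 0.

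The ratio of a miRNA count to its host count in the same library needs no normalization between libraries. For Mir342 and Evl there were 29.8, 109 and 14.7 miRNA counts for each host count in WT replicates 1, 2 and 3 and 11.1, 11.6 and 10.3 in knockout replicates 1, 2 and 3. All knockout libraries lay below all WT libraries. The knockout values were closer together than their counting error, so their small spread is no measure of precision. The few Evl counts make these ratios imprecise. The 95% exact Clopper-Pearson bounds were 15.5 and 65.8, 29.8 and 906, and 7.50 and 32.8 for WT replicates 1, 2 and 3. For knockout replicates 1, 2 and 3 they were 5.16 and 28.6, 4.70 and 37.1, and 6.25 and 18.1. Each of these knockout intervals held the 14.7 of WT replicate 3. The bounds cover counting error only, as PCR copies are not independent molecules. Summed over libraries the ratio was 618 to 20 in WT and 311 to 29 in knockout libraries. Of these 29 Evl counts, 17 came from knockout replicate 3, the library with the most gene counts. That library also had the most Mir342 counts of the knockout libraries (175). On the log2 scale with 0.5 added to each count, the mean in WT was 5.02 ± 1.34 (SD, n = 3), against 3.37 ± 0.0439 (SD, n = 3) in knockout libraries, a difference of -1.65 (exact permutation test, two-sided, p = 0.1, adjusted over the 4 pairs of members tested 0.2). Without WT replicate 2, which had 2 Evl counts, the difference was -0.94.

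The ratio of Mir15b to Smc4 was likewise lower in the knockout. Mir15b had 0.299, 0.209 and 0.144 counts for each Smc4 count in WT and 0.112, 0.0870 and 0.130 in knockout libraries. Here too the groups did not overlap, although WT replicate 3 and knockout replicate 3 were close. The log2 ratio in WT was -2.25 ± 0.523 (SD, n = 3), against -3.16 ± 0.276 (SD, n = 3) in knockout libraries, a difference of -0.91 (exact permutation test, two-sided, p = 0.1, adjusted 0.2). The same transcript also holds Mir16-2, which had 0.0747, 0.0759 and 0.138 counts for each Smc4 count in WT and 0.0522, 0.104 and 0.120 in knockout libraries, and these groups overlapped (log2 difference -0.07, exact permutation p = 0.9, adjusted 0.9). The direction turned to 0.21 without WT replicate 3 and to 0.27 without knockout replicate 1.

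Summed over libraries, Mir15a had 4 counts beside 11 of Dleu2 in WT and 6 beside 7 in the knockout. Their log2 ratio differed by 1.25 in the other direction, with overlapping groups (exact permutation p = 0.2, adjusted 0.267), and single libraries held 1 to 9 counts of the pair. Mir16-1 and Dleu2 were not tested because Mir16-1 had only 2 counts.

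**Figure D4:**
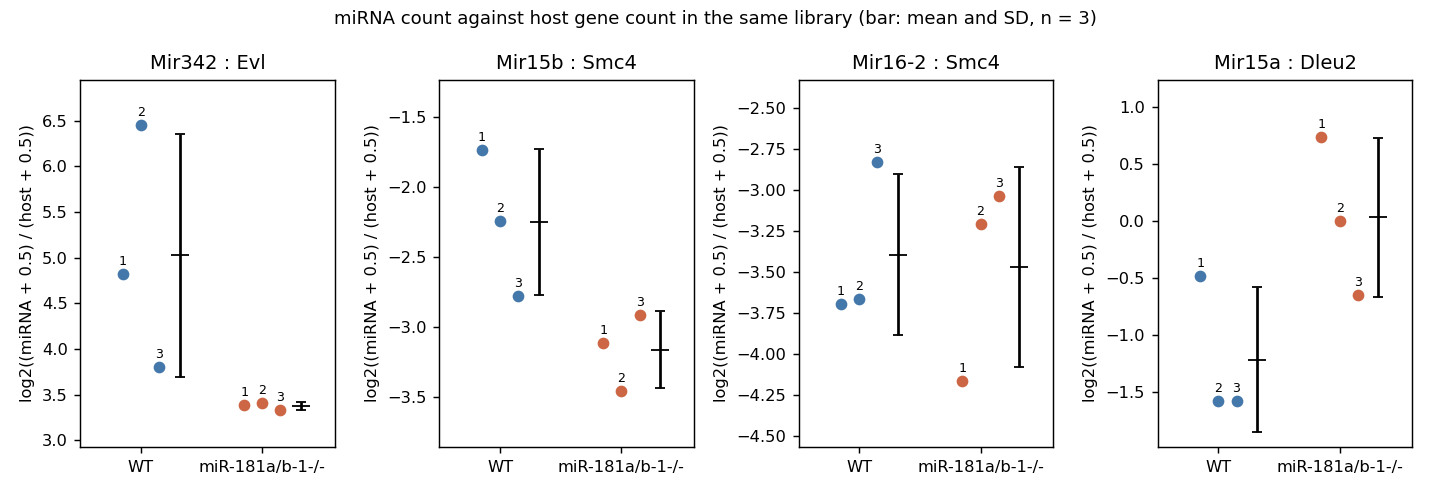
Log2 ratio of the miRNA count to the host gene count in the same library (y axis, 0.5 added to each) for the 4 pairs of members tested, with WT in blue, miR-181a/b-1-/- in orange and the mean and SD (n = 3) beside the points. The Mir342 to Evl and Mir15b to Smc4 ratios do not overlap between genotypes, and the other two overlap.

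Other intronic miRNAs give the background for these ratios. There were 24 pairs of a miRNA gene and a gene around it on the same strand in which both had at least 10 counts over the 6 libraries, 4 of them members. The ratio was lower in knockout libraries in 17 of the 24 pairs and higher in 6, with a median log2 difference of -0.53, so that a lower ratio was the common direction. The pairs are not independent, as Smc4, Huwe1 and Sfmbt2 recur as hosts, and some pairs had few counts in each library. The share of gene counts on miRNA features was also lower in the knockout (above), and its part in these ratios was not tested. In 3 pairs (12.5%) the groups did not overlap with knockout below WT, and these were Mir342 to Evl, Mir15b to Smc4 and Mir744 to Map2k4. Of the 20 pairs that are no members, this was the case for 1, the Mir744 pair. Mir744, which was singled out after its values were seen, differed by -1.66, which is close to the -1.65 of Mir342. The 3 most counted pairs that are no members were Mir423 to Nsrp1 (log2 difference -0.42), Mir23b to 2010111I01Rik (0.07) and Mirlet7g to Wdr82 (-0.85), and in each of them the groups overlapped. In the order of the 24 differences from the lowest, Mir342 to Evl was in place 3, Mir15b to Smc4 in place 7, Mir16-2 to Smc4 in place 17 and Mir15a to Dleu2 in place 24.

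**Figure D5:**
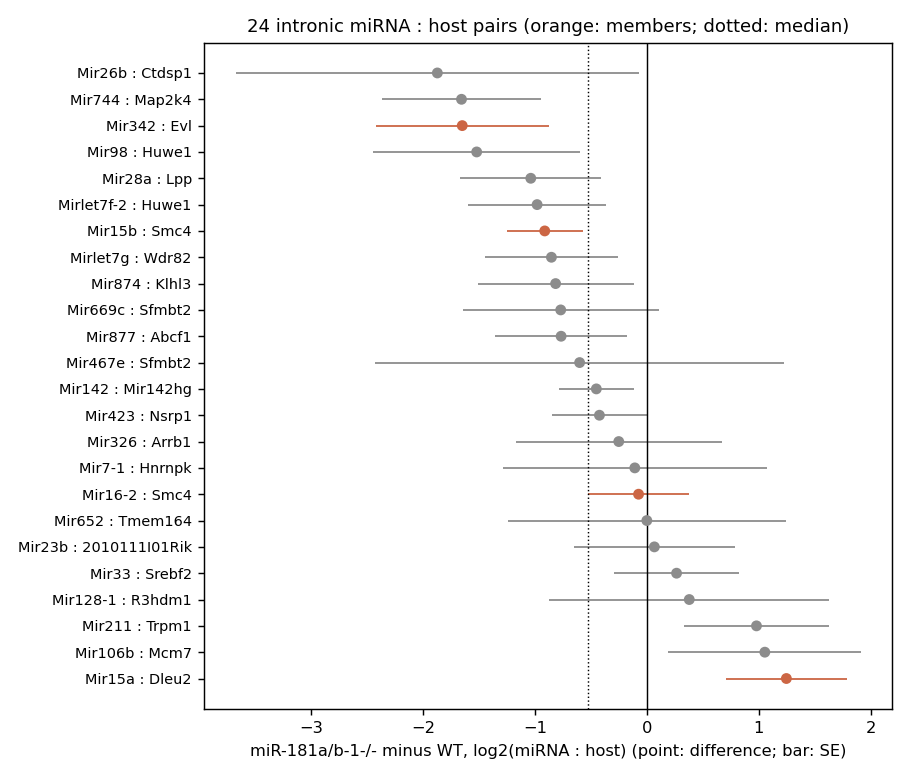
Difference between genotypes in the log2 ratio of miRNA to host (x axis, miR-181a/b-1-/- minus WT, point and standard error) for 24 intronic miRNA and host pairs, with members in orange, other pairs in grey and the median of -0.53 as a dotted line. Most pairs lie below 0, Mir342 to Evl and Mir15b to Smc4 lie below the median, and Mir15a to Dleu2 is the highest.

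Within the Smc4 intron, Mir15b outnumbered Mir16-2 by 4.00, 2.75 and 1.04 to 1 in WT replicates 1, 2 and 3 and by 2.14, 0.833 and 1.09 to 1 in knockout replicates 1, 2 and 3. The value below 1 means that Mir16-2 was the more counted hairpin in knockout replicate 2. The groups overlapped, and the log2 ratio in WT was 1.14 ± 0.984 (SD, n = 3), against 0.31 ± 0.669 (SD, n = 3) in knockout libraries (difference -0.84, exact permutation test, two-sided, p = 0.3, adjusted over 3 comparisons 0.3). The difference was -0.43 without WT replicate 1 and -1.38 without WT replicate 3. Reads of miR-16-5p alone may be missing from this ratio, as described above.

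All hairpins with the miR-15/16 seed together had 270 counts, of which the Smc4 pair gave 255 (94.4%) and the Dleu2 pair 12 (4.44%). Outside the members, Mir322 had 3 counts and Mir195a, Mir195b, Mir497, Mir6342, Mir6353 and Mir6419 had 0. The family had 68, 46 and 57 of 3368, 3069 and 2709 miRNA counts in WT and 24, 23 and 52 of 1814, 1359 and 3422 in knockout libraries. As shares of the miRNA counts these overlapped between genotypes, with means of 1.87% ± 0.328 (SD, n = 3) and 1.51% ± 0.185 (SD, n = 3) (exact permutation p = 0.3, adjusted 0.3). For Mir342 the shares were 7.96%, 7.10% and 4.87% in WT and 4.30%, 4.27% and 5.11% in knockout libraries. WT replicate 3 was within the range of the knockout libraries, and WT replicates 1 and 2 were above it. The difference of means was -2.08 percentage points (exact permutation p = 0.2, adjusted 0.3).

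Genes that act with the members or on which they act were mostly low in these small RNA libraries, and in the test of all genes (edgeR) 0 of them had an adjusted p under 0.05. Of 13 genes known as targets of miR-15/16, 4 were tested. Bcl2, which protects cells from apoptosis, had 28, 30 and 23 counts in WT and 14, 16 and 23 in knockout libraries, or 139, 152 and 104 CPM against 84.4, 90.2 and 94.4 CPM. Its groups did not overlap in CPM, as was the case with the knockout lower for 4.82% of all genes tested (above). The same held for Pfn1, Stag2 and Cd4, which are in the other gene lists and not among these targets. The log2 fold change of Bcl2 was -0.54 with a standard error of 0.30 (edgeR adjusted p = 0.974). Ccnd2, a cyclin of the G1 phase, was at 0.04, its relative Ccnd3 at -0.36, and Mcl1, a relative of Bcl2, at -0.03, each within its standard error of 0 (0.25, 0.44 and 0.27). The median of the 4 was -0.19.

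Of 16 genes that process or use miRNAs, 5 were tested, with a median log2 fold change of -0.26 and a range from -0.45 (Ago2, an Argonaute protein, standard error 0.36) to 0.20 (Tnrc6a, which binds Argonaute, standard error 0.31). Drosha had 1 to 6 counts in each library and Dgcr8 had 0. Among 14 Ena/VASP proteins and actin partners, 8 were tested, with a median of 0.04. Vasp, the relative of Evl, was at -0.09 (standard error 0.36), and the largest difference was -0.63 for Pfn1, the actin monomer-binding profilin (standard error 0.31). Enah, the remaining Ena/VASP protein, had 1 count. Among 11 genes of cohesin and the Smc5/6 complex, 8 were tested, with a median of -0.10 and a range from -0.59 (Stag2) to 0.22 (Rad21). Besides Smc4, no condensin gene had enough counts for a test.

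The genes most like each tested member across the 6 libraries were taken from the 1391 genes tested, which leave out Evl and Dleu2, by Pearson correlation of log2 CPM, as a description over 6 points that share library depth. For Mir342 they were Snord34 (r = 0.991), a snoRNA gene, and Lrrc32 (0.982), which codes for a receptor of latent TGF-beta on activated Treg cells. Lrrc32 had 17, 16 and 12 counts in WT and 8, 7 and 17 in knockout libraries, and in CPM replicate 3 was lowest in WT and highest in knockout libraries, as for Mir342. For Mir15b they were Snord34 (0.978) and Mir342 itself (0.950). For Mir16-2 they were Rpl21 (0.925) and Eif3e (0.923), a ribosomal protein and an initiation factor gene, and for Smc4 they were Iqgap1 (0.984), a scaffold of the actin cytoskeleton, and Ago2 (0.978).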

How the data were processed

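The authors trimmed the small RNA reads with Flexbar, removed rRNA reads with Bowtie 2, aligned with STAR (GRCm38.p6 in the submitters' processing notes) and deposited HTSeq counts per gene. HTSeq settings, strand use and annotation release are not given in the sources used here. Records given to no gene (75.7% to 80.3% of a library) were left out. They included 41.7% to 46.2% of a library for lack of a unique alignment and 20.4% to 24.0% that HTSeq marked ambiguous between genes. Whether the latter held reads of the members cannot be seen from counts per gene. The deposited miRNA table gave feature names; its signal columns are counts that the authors divided by 1 size factor per sample, and its columns of their own DESeq2 comparison (fold changes, p-values) were not used. Names and coordinates came from GENCODE vM21 (53620 of 54547 identifiers matched).

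Genes that reached 10 counts in 3 or more of the 6 libraries were tested with edgeR 4.0.16 (TMM, quasi-likelihood, no block, Benjamini-Hochberg) in R 4.3.3, over all 1391 genes and over 23 miRNA features. Standard errors are the fold change over the root of F. Ratios and shares were compared by exact two-sided permutation in SciPy 1.17.1. The edgeR script was tested on simulated data. Alternatives were DESeq2 1.42.0, other filters, normalizations and pseudocounts, leaving out each library, and a replicate block. The study's methods call the libraries biological replicates; p-values measure the spread between them. Replicates differed by a chi-square of 2.07 to 4.20 per degree of freedom, so each was kept.

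Members and gene lists were chosen with earlier results of these data known. Genes named are the members, hairpins of their seed, listed genes with enough counts (at most 6 of a list, the most counted), the 2 genes most correlated with each tested member and the 3 most counted other intronic pairs. Others (Foxp3, Cd4, Vasp, Mir744, Degs2, condensin and list genes with few counts, ends of ranges) were chosen after their values were seen.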

Additional observations from a re-analysis of the deposited data

How the results depend on the processing

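Mir342 and Mir15b had negative log2 fold changes under all 12 alternatives in each of the 2 tests, from -1.34 to -0.77 and from -1.36 to -0.84 over all genes and from -0.99 to -0.41 and from -1.14 to -0.55 over miRNA features (edgeR or DESeq2 adjusted p from 0.0214 upward). The number of members lower was 1 (Mir342) without knockout replicate 3 in the test of all genes, where 1 gene was lower (0.0719%) and 3 higher of 1391, and 0 to 1 over the fits that left out 1 library. It was 2 with the p-values of the fit of all genes adjusted over the 23 miRNA features, where 2 were lower (8.7%) and 1 higher of 23; the cause was not tested for either. Mir16-2 changed sign: over all genes it ran from -0.58 to 0.13 when 1 library was left out (positive without WT replicate 3), and over miRNA features from -0.39 to 0.52, with -0.26 without a count filter and -0.27 in the fit of all genes; the cause was not tested. The Mir16-2 to Smc4 difference ran from -0.29 to 0.27 when 1 library was left out. The other ratios and shares kept their direction in every alternative run: -2.26 to -0.94 for Mir342 to Evl, -1.18 to -0.65 for Mir15b to Smc4, 0.89 to 1.61 for Mir15a to Dleu2, -1.38 to -0.43 for Mir15b to Mir16-2, and, in percentage points, -0.550 to -0.247 for the seed family and -2.97 to -1.43 for Mir342. The planned difference of fold changes could not be had for Mir342 to Evl or Mir15a to Dleu2, as Evl, Mir15a and Dleu2 were below the filter. Without a filter it was -1.57 for Mir342 to Evl. This setting and the adjustment over miRNA features were chosen after seeing the data.

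Same-numbered libraries deviated together with r = 0.231, 0.0812 and 0.182 over 1391 genes, and each library correlated best with its own number, which is a hint and not a pairing by design. With the replicate block the log2 fold changes over all genes were -0.97 for Mir342 and -1.10 for Mir15b (edgeR adjusted p = 0.429 and 0.252), and 0 members and 0 of 1391 genes passed in either direction. At an unadjusted p under 0.05, 40 genes were lower, Mir342 and Mir15b among them, and 48 were higher. Depth limits Evl, Mir15a, Mir16-1 and Dleu2 most, with 49, 10, 2 and 18 counts in all.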
